A study of Mus musculus with 40 samples.

Results

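The miR-26 family of the mouse consists here of 3 mature miRNAs, mmu-miR-26a-5p, mmu-miR-26b-5p and mmu-miR-26b-3p (the species prefix is left out from here on), out of 1978 mature miRNAs that were counted in small RNA libraries of the hippocampal CA1 region. The members were chosen by name as arms of the miR-26 hairpins, with earlier results of these data known. The other 2 arms of the same hairpins, miR-26a-1-3p and miR-26a-2-3p, are described beside them, which gives 5 arms of 3 hairpins. The 40 libraries, each from 1 mouse, fell into 4 groups: 5 wild-type controls and 9 CamKIIδC TG animals aged 3 months, and 15 wild-type controls and 11 CamKIIδC TG animals aged 6 months. The TG mice carry a transgene for CamKIIδC, a splice form of a calcium/calmodulin-dependent kinase, and serve as a mouse model of heart failure. Groups follow the sample titles, and the study's text gives other numbers of TG mice per age, a difference that was not resolved here. The wild-type control mice were littermates on the C57Bl/6J background, and mice of both sexes were used. The promoter that drives the transgene is not given in the sources used here. The comparisons ask whether hippocampal miRNAs differ between 3 and 6 months of age within each genotype, and between the genotypes at each age.

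miRNAs are cut from hairpins of longer transcripts, and a mature strand guides the silencing complex to mRNAs that pair with its seed, bases 2 to 8. The miR-26 hairpins lie in introns of the Ctdsp genes, which encode small phosphatases that act with the transcription factor REST to keep neuronal genes silent outside neurons. miR-26 is known to target Ctdsp mRNAs, so that the host genes and their intronic miRNAs form a feedback loop in neuronal differentiation. The mature sequences, taken from RefSeq (GRCm38.p6), are shown to make clear which arms can share targets and which reads can be told apart. Capitals mark the seed.

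miR-26a-5p: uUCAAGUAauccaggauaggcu
miR-26b-5p: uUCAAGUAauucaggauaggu
miR-26b-3p: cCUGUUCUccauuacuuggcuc
miR-26a-2-3p: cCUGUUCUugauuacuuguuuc
miR-26a-1-3p: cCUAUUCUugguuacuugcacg

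miR-26a-5p is 22 bases long and miR-26b-5p is 21 bases long. Over the 21 positions they share, counted from 1 at the 5′ end, they differ at 2 positions, C11U and C21U with the base of miR-26a-5p first. Their seed UCAAGUA was found in no other of the 1679 mature miRNAs that were matched by name to a RefSeq sequence, which is 84.9% of the 1978 names. The seed CUGUUCU of miR-26b-3p is shared with miR-26a-2-3p, miR-6932-3p and miR-7039-3p. The seed of miR-26a-1-3p differs from that of miR-26a-2-3p by A4G, and was found in no other matched miRNA.

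The hairpins that carry these arms are shown in full, because miR-26a-5p is made from both Mir26a-1 and Mir26a-2, whereas the 3p arms name a single locus. Capitals mark the 5p arm and then the 3p arm.

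Mir26a-1: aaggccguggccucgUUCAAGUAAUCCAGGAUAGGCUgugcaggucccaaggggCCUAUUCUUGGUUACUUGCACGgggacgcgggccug
Mir26a-2: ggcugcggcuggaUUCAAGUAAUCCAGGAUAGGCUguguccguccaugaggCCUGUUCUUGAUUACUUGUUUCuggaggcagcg
Mir26b: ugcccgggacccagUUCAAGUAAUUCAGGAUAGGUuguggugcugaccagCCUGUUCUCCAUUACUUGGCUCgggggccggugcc

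Mir26a-1 lies on the + strand at chr9:119031796-119031885 (GRCm38), in intron 5 of 7 of a Ctdspl transcript, an intron of 3283 bases. Mir26a-2 lies on the + strand at chr10:126995530-126995613, in intron 5 of 7 of a Ctdsp2 transcript, an intron of 1946 bases, and 1 base of the hairpin overlaps exons of 2 other Ctdsp2 transcripts. Mir26b lies on the + strand at chr1:74394310-74394394, in intron 4 of 6 of a Ctdsp1 transcript, an intron of 564 bases. All 3 host genes are on the + strand, so that each hairpin is part of the sense transcript of its host.

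Total counts per library, which include the spike-ins and count a miRNA on each hairpin it is listed under, ranged from 2656368 to 36547011. Levels are given in CPM (counts scaled to a common library size, here with TMM normalization). Before TMM normalization, 3 counts corresponded to 0.131 to 1.56 CPM of the miRNA counts. After it, 3 counts in the shallowest library, 6-month-old TG mouse 9, were 2.10 CPM. They were more in 6-month-old wild-type control mouse 5, whose library size after TMM was smaller (1290970 against 1429470). This floor covers counting error only. Depth moved with age, since the median total was 22455957 in wild-type controls and 29499287 in TG mice at 3 months, but 14908612 and 13894826 at 6 months. In a principal component analysis of 694 miRNAs without the miR-26 arms, the first component held 49.8% of the variance and spread libraries within groups. Among 3-month-old TG mice it placed mice 1, 2, 3 and 8 at -19.8 to -5.74 and the others at 12.9 to 21.2. Among 6-month-old wild-type controls it ran from -31.9 to 13.1. Its part in the miR-26 values was not tested. The second component (9.24% of the variance) placed 11 of the 14 3-month libraries below all 26 of the 6-month libraries. TG mouse 8 and wild-type control mice 1 and 5 of the 3-month group lay within the 6-month range and are called the libraries that stood apart. They were picked by likeness to the other age, so leaving them out is no independent check of a difference between ages. The title names wild-type controls 1 and 2 of the 3-month group as wild-type while their genotype field reads TG, and they were kept as wild-type here. Reads of miR-26a-5p were listed on both of its hairpins with nearly the same counts, which differed by 2663 of 19387529 reads in all, so these reads do not show how much each locus contributed.

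miR-26a-5p was the 7th most abundant of the 1978 miRNAs, with a mean of 36089 CPM over the 40 mice. It took between 1.27% and 5.73% of the miRNA counts of a library, with each miRNA counted on 1 hairpin and without spike-ins. miR-26b-5p ranked 63rd with a mean of 1612 CPM. The 3p arms were far lower, at 6.39 CPM for miR-26a-2-3p (rank 404), 1.30 CPM for miR-26b-3p (rank 575) and 0.510 CPM for miR-26a-1-3p (rank 692). These levels are comparable per molecule without a length correction, because all 5 arms have 21 or 22 bases, although capture of each sequence in library preparation was not measured.

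**Figure D1:**
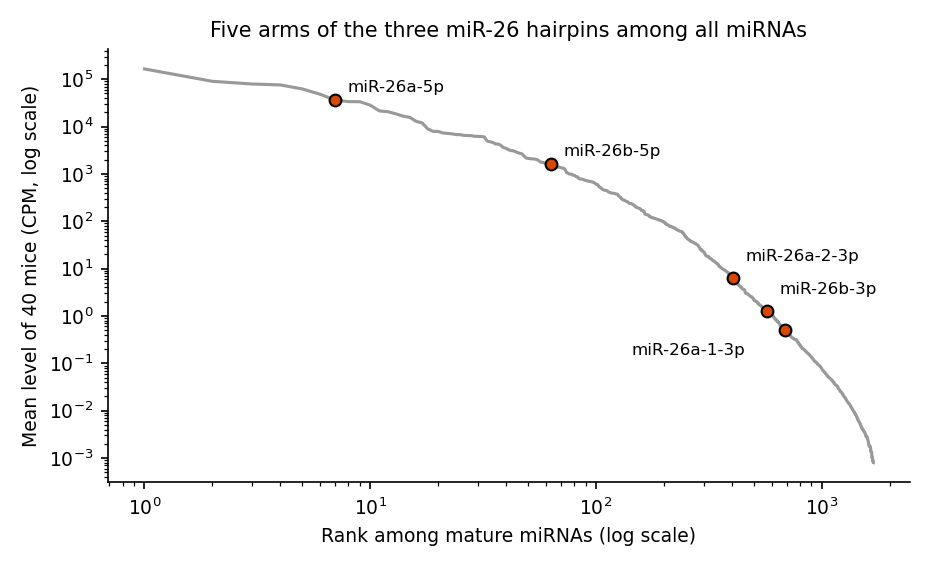
Mean CPM of each mature miRNA over 40 mice against its rank, both on log scales (grey line), with the 5 arms of the miR-26 hairpins as points. miR-26a-5p stands at rank 7 and miR-26b-5p at rank 63, whereas the 3p arms stand between ranks 404 and 692.

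Read numbers set how firmly each arm can be judged. miR-26a-5p was covered by 26379 to 1221531 reads per library and miR-26b-5p by 615 to 89092 reads. miR-26b-3p, in contrast, had 818 reads in all 40 libraries together, with a median of 11 reads per library, and 0 reads in 3 libraries, which allows up to 3 counts in each. miR-26a-1-3p had 274 reads in all and was at 0 in 6 libraries. Differences of the rarest arms that are smaller than their wide intervals were not detectable at this depth.

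Between 3 and 6 months of age in CamKIIδC TG mice, miR-26b-5p was lower at 6 months, close to the threshold, while the far more abundant miR-26a-5p differed by less than its spread. miR-26b-5p ranged from 1081 to 3181 CPM with a median of 2377 CPM in the 9 TG mice at 3 months, and from 739 to 1842 CPM with a median of 1469 CPM in the 11 TG mice at 6 months. Every one of the 11 TG mice aged 6 months lay below the 3-month mean, and 6 of the 9 3-month-old TG mice lay above every 6-month-old TG mouse, although the ranges overlap. The means were 2133 ± 748 CPM (SD, n = 9) and 1413 ± 388 CPM (SD, n = 11). The log2FC was -0.58 (standard error 0.21, 95% interval -1.01 to -0.15), with an edgeR adjusted p of 0.0596, so that miR-26b-5p was not called altered. The rule for a call was an absolute log2FC above 0.26 together with an adjusted p under 0.05. None of the 3 members passed this rule in TG mice, against 15.7% of all 629 miRNAs tested (99 miRNAs).

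The call for miR-26b-5p depended on the method. With DESeq2, the log2FC was -0.64 with an adjusted p of 0.0239, and without TG mouse 8 at 3 months, one of the libraries that stood apart, it was -0.67 with an edgeR adjusted p of 0.0202. Leaving out 3-month-old TG mouse 1 or 3 also gave a call, with adjusted p values of 0.0454 and 0.0267 from edgeR. With the log2 library total as a covariate, by contrast, the log2FC was -0.12 for miR-26b-5p (edgeR adjusted p = 0.679), 0.37 for miR-26a-5p (edgeR adjusted p = 0.0831) and -0.45 for miR-26b-3p (edgeR adjusted p = 0.610). The sign for miR-26b-5p was negative in all 38 alternative settings, some of which repeat the same fit, from -1.32 to -0.12. Of these settings, 20 left out 1 mouse each and so share most of their libraries with the main fit. In bulk tissue, fewer cells of a type and less RNA per cell cannot be told apart.

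miR-26a-5p had 22790 to 40591 CPM (median 38112) in TG mice at 3 months and 24492 to 51591 CPM (median 37204) at 6 months. The ranges overlapped, with 3 of 11 6-month-old mice above the highest 3-month-old mouse and 0 below the lowest. At 3 months, TG mice 1, 2 and 3 had 26885, 22790 and 24204 CPM, and mice 4 to 9 had 36179 to 40591 CPM. The means were 34207 ± 7381 CPM (SD, n = 9) and 37618 ± 6666 CPM (SD, n = 11), and the log2FC was 0.15 (95% interval -0.15 to 0.45, edgeR adjusted p = 0.482). Its sign turned with library totals alone (-0.12) and with the spike-in totals as library size (-0.58), settings in which the median log2FC of all miRNAs was -0.29 and -0.73 in place of -0.09.

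miR-26b-3p, from the opposite arm of the miR-26b-5p hairpin, had 0.355 to 2.65 CPM (median 1.70) in TG mice at 3 months and 0 to 2.08 CPM (median 1.01) at 6 months. Here 10 of the 11 TG mice aged 6 months had less than the 3-month mean and 3 below the lowest 3-month-old mouse, 2 of them with 0 reads. The log2FC was -0.91 (standard error 0.44, 95% interval -1.83 to 0.01, edgeR adjusted p = 0.159). The 6-month libraries held a median of 4 reads of this arm and the 3-month libraries a median of 40 reads.

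**Figure D2:**
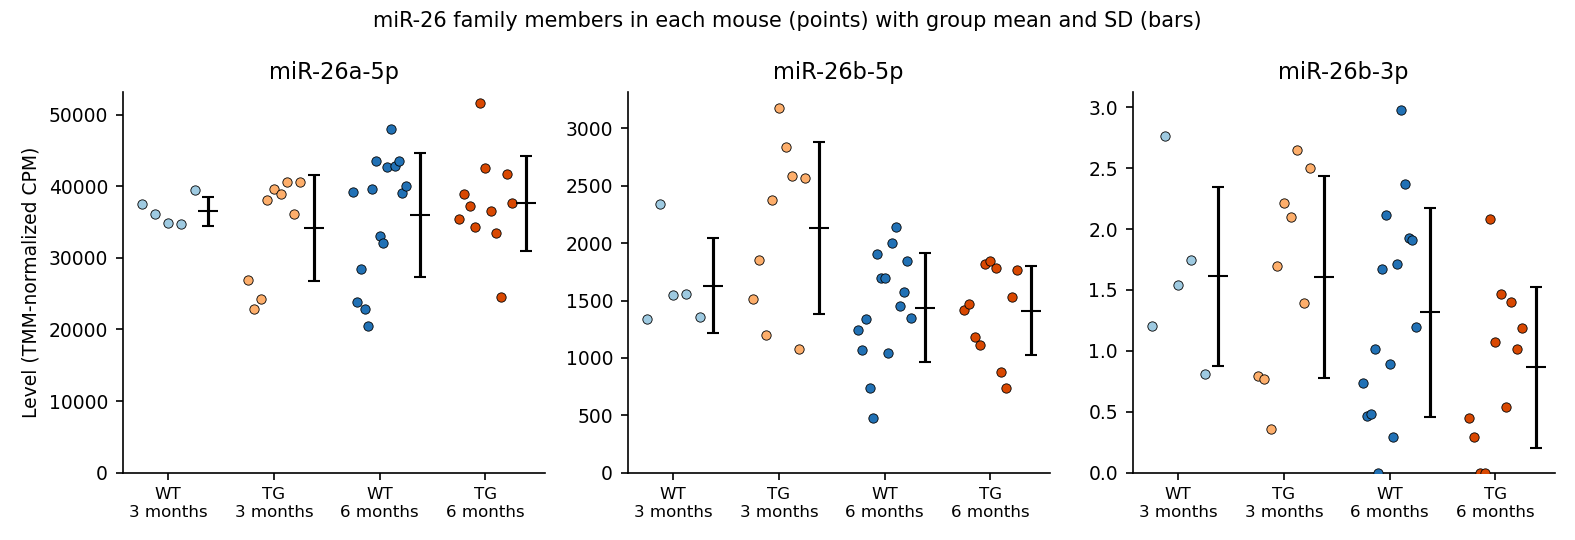
TMM-normalized CPM (linear axes from 0) of the 3 members in each mouse, as points by genotype and age, with bars for the group mean and SD. miR-26b-5p reaches 3181 CPM in 3-month-old TG mice and 1842 CPM in 6-month-old TG mice, and the groups overlap for all 3 members.

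In wild-type control mice, no member was called between 3 and 6 months of age, where 0.152% of 660 miRNAs were (1 miRNA). miR-26b-5p had 1344, 2344, 1546, 1555 and 1360 CPM in wild-type controls 1 to 5 at 3 months, and 476 to 2143 CPM with a median of 1454 CPM at 6 months. Only mouse 2 lay above the 6-month range, and 6 of the 15 6-month-old mice lay below all 5 3-month-old mice. The log2FC of miR-26b-5p was -0.19 (95% interval -0.70 to 0.33, edgeR adjusted p = 0.751). It was -0.01 without 3-month mouse 2, -0.12 without 6-month mouse 5, -0.07 without the 6-month libraries under 5000000 reads and -0.36 without the 3-month libraries that stood apart. miR-26a-5p had 37533, 36168, 34806, 34664 and 39482 CPM at 3 months and 20433 to 48039 CPM (median 39208) at 6 months, a log2FC of -0.03 (95% interval -0.39 to 0.33). The 6-month-old mice lay on both sides of the 3-month-old mice, 6 of 15 below and 7 above all of them. miR-26b-3p had 1.2, 2.76, 1.54, 1.75 and 0.811 CPM at 3 months and 0 to 2.98 CPM (median 1.19) at 6 months, with a log2FC of -0.22 (95% interval -1.03 to 0.60).

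At 3 months of age, TG mice were compared with wild-type control mice, and 0% of 695 miRNAs were called by edgeR (7 had an unadjusted p under 0.05). The log2FC of TG over wild-type was 0.36 for miR-26b-5p (95% interval -0.26 to 0.98), -0.12 for miR-26a-5p (95% interval -0.55 to 0.31) and 0.00 for miR-26b-3p (95% interval -0.86 to 0.86), each with an edgeR adjusted p of 0.998. The value for miR-26b-5p was 0.57 without wild-type control mouse 2, 0.52 without wild-type control mice 1 and 2, whose genotype field reads TG, and 0.06 with the log2 library total as a covariate. For miR-26b-5p, 5 of 9 TG mice lay above all 5 wild-type control mice and 2 lay below all of them. DESeq2 with 2 RUVr factors called 82 miRNAs at 3 months, and the adjusted p of miR-26b-5p was then 0.0631.

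At 6 months of age, 0% of 612 miRNAs were called between TG and wild-type control mice by edgeR (3 had an unadjusted p under 0.05), and DESeq2 with 2 RUVr factors called 6. miR-26a-5p and miR-26b-5p had log2FC values of 0.05 (95% interval -0.20 to 0.31) and -0.04 (95% interval -0.42 to 0.34). miR-26b-3p was at 1.32 ± 0.859 CPM (SD, n = 15) in wild-type control and 0.864 ± 0.663 CPM (SD, n = 11) in TG mice, with a log2FC of -0.69 (95% interval -1.51 to 0.13, edgeR adjusted p = 0.992). No TG mouse lay outside the wild-type range for this arm.

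Whether the change with age differed between the genotypes was tested as an interaction over the 4 groups, in which 0% of 699 miRNAs were called by edgeR (14 had an unadjusted p under 0.05). The interaction log2FC was 0.16 for miR-26a-5p (95% interval -0.28 to 0.60), -0.41 for miR-26b-5p (95% interval -1.08 to 0.26) and -0.70 for miR-26b-3p (95% interval -1.96 to 0.55), each with an edgeR adjusted p of 0.986. The lower miR-26b-5p at 6 months was therefore not shown to be particular to TG mice.

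**Figure D3:**
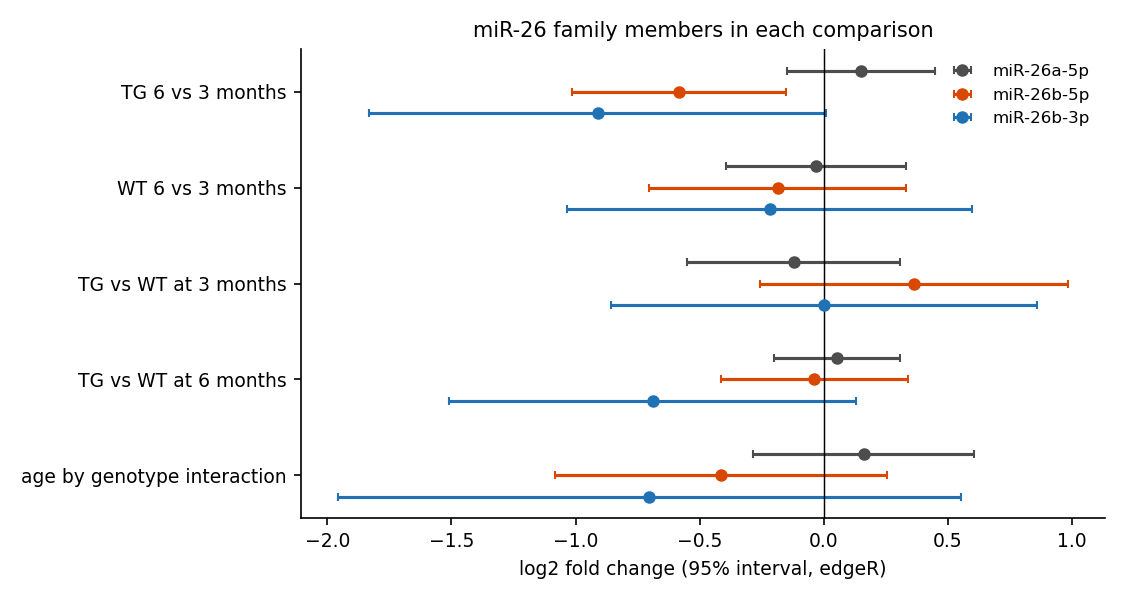
Log2FC (horizontal axis) of the 3 members with 95% intervals from edgeR in each comparison, given as 6 months over 3 months, TG over wild-type, and the interaction. Only the interval of miR-26b-5p in TG mice, -1.01 to -0.15, lies wholly on one side of 0, and no adjusted p is under 0.05.

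miR-26a-5p and miR-26b-5p share a seed, and their ratio within a library does not depend on how libraries are scaled to each other. In CamKIIδC TG mice this ratio rose between 3 and 6 months of age. Mice 1 to 9 at 3 months had 17.7, 12.3, 20.1, 16, 12.5, 13.7, 15.7, 33.5 and 15.8 miR-26a-5p reads per miR-26b-5p read. The 11 TG mice at 6 months had 20.5 to 38, with a median of 27.2. All 3-month-old TG mice except mouse 8 lay below all 11 of the 6-month-old TG mice. The geometric means were 16.7 and 27.3, a 1.64-fold increase or 0.71 on the log2 scale (standard error 0.17), with an exact permutation p of 0.00075, two-sided, and an adjusted p of 0.00900 over 12 ratio tests. Without mouse 8 the increase was 0.84 on the log2 scale, though that mouse was set apart for likeness to the 6-month libraries. Across 25 alternatives of this test, which left out each TG mouse in turn among others, it ranged from 0.65 to 0.84, with adjusted exact permutation p values of 0.000318 to 0.0200. Some of these alternatives repeat the same test, and none held the library depth as a term.

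**Figure D4:**
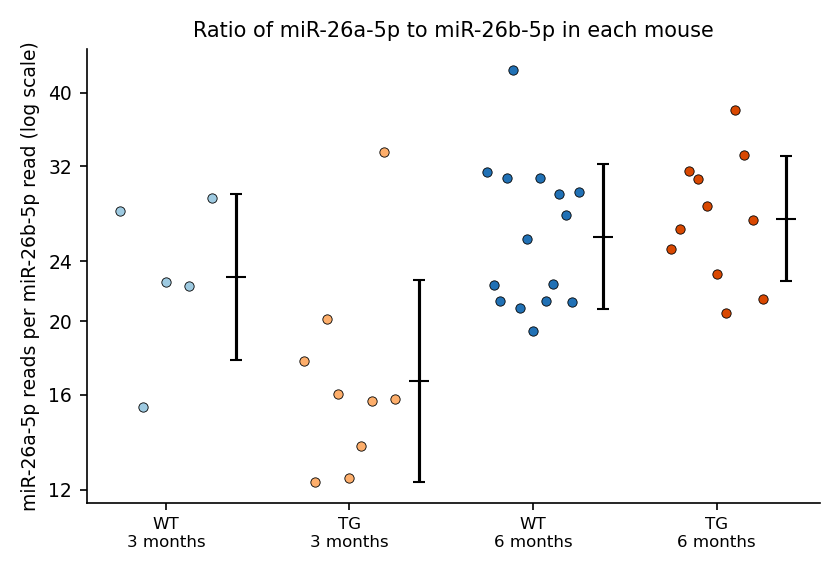
Reads of miR-26a-5p per read of miR-26b-5p in each mouse (log2-spaced axis), with bars for the geometric mean and SD of the log2 ratio. The 3-month-old TG mice lie between 12.3 and 20.1 except mouse 8 at 33.5, and the 6-month-old TG mice lie between 20.5 and 38.

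In wild-type control mice the ratio was 27.9, 15.4, 22.5, 22.3 and 29.0 at 3 months and 19.4 to 42.9 (median 25.7) at 6 months. The groups overlapped, and the difference of 0.18 on the log2 scale (standard error 0.18) had an exact permutation p of 0.320. It was 0.03 without 3-month mouse 2 and 0.39 without the 3-month libraries that stood apart. Whether the change of the ratio differs between the genotypes was not tested. TG and wild-type control mice differed by -0.46 at 3 months (standard error 0.22, exact permutation p = 0.0799, adjusted p = 0.306) and by 0.08 at 6 months (standard error 0.12, permutation p = 0.517). At 3 months, 3 of 9 TG mice lay below all 5 wild-type control mice and 1 lay above all of them.

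Depth moved with these values. Over the 40 libraries with group means removed, the log2 level of miR-26b-5p followed the log2 library total with a Pearson's r of 0.825 and a Spearman's rho of 0.726 (permutation p = 1e-05 for both, the smallest 100000 resamples can give, adjusted p = 2.5e-05 and 5e-05 over 5 relations). Without the 2 libraries farthest from the median total, r was 0.750, and within 3-month-old TG, 6-month-old wild-type control and 6-month-old TG mice it was 0.906, 0.819 and 0.874. For miR-26a-5p, r was 0.686 and rho was 0.610 (permutation p = 1e-05 and 6e-05, adjusted p = 2.5e-05 and 0.00015), with r = 0.540 without the 2 farthest libraries, and 0.665, 0.763 and 0.790 within the same groups. For miR-26b-3p, r was 0.402 and rho was 0.464 (permutation p = 0.00989 and 0.00267, adjusted p = 0.0124 and 0.00334), with r = 0.416 without the 2 farthest libraries, and it was 0.759, 0.659 and -0.04 within the groups, so that it did not hold within 6-month-old TG mice. The 5 wild-type control mice at 3 months were too few for a value of their own.

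The ratio of miR-26a-5p to miR-26b-5p fell with depth, with r = -0.60 and rho = -0.55 (permutation p = 7e-05 and 0.0004, adjusted p = 0.000117 and 0.000667), r = -0.54 without the 2 farthest libraries, and -0.64, -0.57 and -0.66 within the groups. In a least-squares fit with the log2 library total as a term, the increase of the ratio between 3 and 6 months in TG mice was 0.48 on the log2 scale (standard error 0.16), compared with 0.71 without the term, and in wild-type control mice it was 0.01 (standard error 0.15). The 4 3-month-old TG mice whose totals lay within the range of the 6-month-old TG mice were mice 1, 2, 3 and 8. Mice 1, 2 and 3 had a lower ratio than all 11 of the 6-month-old TG mice, whereas only 1 of the 11 lay above mouse 8. Their miR-26b-5p levels, 1516, 1854, 1202 and 1081 CPM, lay in the range of the 6-month-old TG mice except for mouse 2. The other 5 3-month-old TG mice, with the deepest libraries, had 2377 to 3181 CPM.

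**Figure D5:**
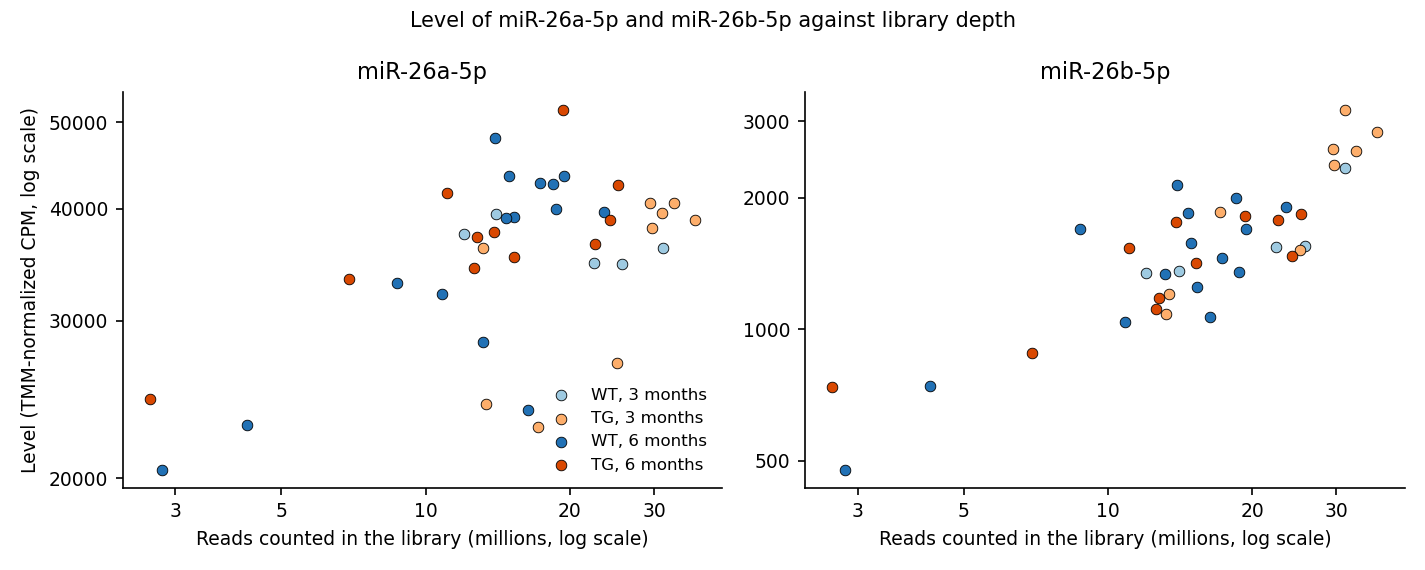
TMM-normalized CPM of miR-26a-5p and miR-26b-5p against the reads counted in the library, all axes on log scales, 1 point per mouse and colours for the 4 groups. miR-26b-5p rises with depth in each group shown (r = 0.825 over 40 libraries with group means removed), and the 5 3-month-old TG mice at the upper right have the deepest libraries of their group.

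The balance of the arms within Mir26b was strongly on the 5p side. miR-26b-5p had 1042 reads per miR-26b-3p read in wild-type controls of 3 months, 1407 in 3-month-old TG mice, 1168 in wild-type controls of 6 months and 2208 in 6-month-old TG mice, as geometric means with 0.5 added to each count. The highest values, 17065 and 14779, came from 6-month-old TG mice 3 and 4, in which miR-26b-3p had 0 reads. No comparison of this arm ratio passed the exact permutation test after adjustment. The smallest p, 0.0725 in the permutation test of TG against wild-type control mice at 6 months (0.92 on the log2 scale, standard error 0.53), had an adjusted p of 0.306, and the sign of both age comparisons turned when 5 was added in place of 0.5. The ratio had no relation to depth that passed the test (r = 0.134, rho = -0.10, permutation p = 0.406 and 0.530).

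The 3p arms of the miR-26a hairpins name their locus, which miR-26a-5p does not. miR-26a-2-3p, from the Ctdsp2 intron, had 7.53 ± 1.46 CPM (SD, n = 5) in wild-type controls aged 3 months, with 6.72 ± 2.27 CPM (SD, n = 9) for TG mice of that age. At 6 months these levels were 6.39 ± 1.52 CPM (SD, n = 15) and 5.62 ± 2.44 CPM (SD, n = 11). The log2FC of this arm lay between -0.23 and 0.00 in the 5 comparisons, and it was called in none. miR-26a-1-3p, from the Ctdspl intron, was tested in the comparison of the genotypes at 3 months (log2FC 0.04, edgeR adjusted p = 0.998) and in the interaction (log2FC 0.16, edgeR adjusted p = 0.987), and did not pass the low-count filter in the other comparisons. The Ctdsp2 arm was the more abundant in 39 of 40 mice, with 0.0575 to 0.117 miR-26a-1-3p reads per miR-26a-2-3p read as geometric means of the groups. The exception was 6-month-old TG mouse 9, the shallowest library, with 3 reads against 1.

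Across the 40 libraries, the miRNAs whose levels were most like each member were named by Spearman correlation of log2 CPM with group means removed, among 359 miRNAs whose mean reached 10 CPM. These correlations are descriptions, since all points share depth and library preparation. miR-26a-5p was most like miR-191-5p (0.889), miR-30c-5p (0.884) and miR-194-5p (0.884). miR-26b-5p was most like miR-15a-5p (0.946), miR-29c-3p (0.926) and the neuronal miR-124-3p (0.921). miR-26b-3p was most like miR-339-5p (0.778), miR-342-3p (0.771) and miR-376c-3p (0.766). Against each other, miR-26a-5p and miR-26b-5p had a correlation of 0.713, and miR-26b-5p and miR-26b-3p, which share a hairpin, had 0.658. Many of the 359 miRNAs were closer. The value of 0.713 would rank 77th among them for miR-26a-5p, and that of 0.658 would rank 98th for miR-26b-5p.

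The other miRNAs linked to the REST and CTDSP silencing circuit are both arms of miR-9, miR-124, miR-132 and miR-212, which are neuronal miRNAs. All 8 were tested in each comparison. In TG mice between 3 and 6 months, 1 of 8 rose and 0 fell, against 7.47% of all 629 miRNAs that rose and 8.27% that fell. This was miR-132-5p, an arm of an activity-regulated hairpin, with a log2FC of 0.62 (standard error 0.19, edgeR adjusted p = 0.0253). The median log2FC of the list was -0.18, and that of all miRNAs was -0.09. None of the 8 was called in the other 4 comparisons by edgeR. miR-124-3p, whose level was among those most like miR-26b-5p, had a log2FC of -0.66 in TG mice (standard error 0.28, edgeR adjusted p = 0.102).

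Some marker miRNAs of cell types were called between the same TG groups, where 7.47% of all 629 miRNAs rose and 8.27% fell. The 3 neuronal markers were summed to 164710 to 316820 CPM at 3 months and 196050 to 362860 CPM at 6 months, of which miR-128-3p was the most abundant and was called higher (log2FC 0.73), whereas miR-124-3p (-0.66) and miR-9-5p (-0.17) were not called. Of 3 oligodendrocyte markers, miR-219a-2-3p and miR-338-3p fell (log2FC -0.57 and -1.02), and the summed level went from 1193 to 2307 CPM at 3 months to 743 to 1356 CPM at 6 months. Both choroid plexus markers, miR-204-5p and miR-211-5p, rose (log2FC 0.89 and 1.07), with summed levels of 290 to 749 CPM at 3 months and 638 to 1023 CPM at 6 months. Of 4 vessel markers 1 rose (miR-126a-3p, log2FC 0.73), summed to 9582 to 16931 CPM and then 13228 to 21004 CPM. The other arm of its hairpin, miR-126a-5p (-0.33), and miR-143-3p (0.28) and miR-145a-5p (0.03) were not called. Of 4 erythroid markers 1 rose (miR-451a, log2FC 0.68) and 1 fell (miR-144-3p, log2FC -0.98), summed to 439 to 1372 CPM and then 644 to 1205 CPM. The erythroid markers miR-144-5p (-0.44) and miR-486a-5p (-0.02) were not called. Of 2 heart and muscle markers tested 1 fell (miR-1a-3p, log2FC -0.80), summed to 616 to 1677 CPM and then 378 to 880 CPM over all 3 markers. Of 5 microglia and leukocyte markers, 0 were called, at 233 to 358 CPM and then 260 to 670 CPM. No listed marker was at 0 in every library, and no marker was called in the other 4 comparisons. Their part in the miR-26 values was not tested.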

How the data were processed

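Small RNA libraries of the hippocampal CA1 region of 40 mice were analysed, grouped by genotype and age from the sample titles. Per the labels, 300 ng of RNA entered each small RNA library. The authors trimmed 3′ adapters with cutadapt (version 2.8 in the submitters' processing notes), aligned reads to mm10 with mirdeep2 and deposited raw, unnormalized counts in 2128 rows, 1 per mature miRNA and precursor, together with 52 UniSp spike-in rows. A further deposited table holds RPM, which equal the counts scaled by the library total within 0.005.

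Each of the 1978 mature miRNAs was represented by its precursor with the highest total, and spike-ins were left out. Counts were tested with edgeR (version 4.0.16, R 4.3.3), using filterByExpr with a minimum count of 10 and a minimum total of 15, TMM normalization, robust dispersions and quasi-likelihood F tests, with p-values adjusted by Benjamini-Hochberg over all miRNAs. Calls needed an absolute log2FC above 0.26 and an adjusted p under 0.05. Fits of 2 groups held those groups alone, and the interaction held all 4. Log2 ratios within a library had 0.5 added to both counts and were compared by two-sided exact permutation tests (100000 resamples where both groups held at least 10 mice, scipy 1.17.1).

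Library totals ranged from 2656368 to 36547011 counts, and no library was a copy of another in its own group. Libraries of different groups were not compared for copies. The tests were checked on simulated data. The alternatives comprised DESeq2 (version 1.42.0), alone or with RUVr or RUVs factors computed from their published definitions, other normalizations and filters, limma (version 3.58.1) on log2(RPM + 1), a replicate block, and fewer mice. After the data were examined, the log2 library total as a covariate, leaving out libraries that stood apart or held under 5000000 reads, and leaving out each other mouse were added.

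The members, the lists and the tests were chosen with earlier results of these data known. The named miRNAs are the 5 arms of the miR-26 hairpins, the 3 miRNAs most like each member among those with a mean of at least 10 CPM, up to 4 called members of the REST and CTDSP list, and listed cell type markers that were called. miR-124-3p is also given from the REST and CTDSP list without a call, named after its values were seen. Uncalled neuronal, vessel and erythroid markers are given beside the called ones. Arms were placed with the GENCODE annotation of GRCm38, the build of the files.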

Additional observations from a re-analysis of the deposited data

Results flagged for a closer look

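Of 12 sets of values from the 3-month groups examined for a single mouse far from the others (3 members and 3 ratios), 2 held one, where chance alone gives about 1 in 20. 3-month-old wild-type control mouse 2 had 2344 CPM of miR-26b-5p, and the other 4 mice of its group had 1344 to 1555 CPM. It is one of the 2 mice whose genotype field differs from the title, and its library, with 31304284 counts, was the deepest of its group. 3-month-old TG mouse 8 had 33.5 miR-26a-5p reads per miR-26b-5p read, and the other 8 mice of its group had 12.3 to 20.1. Its library, with 13200774 counts, was the shallowest of its group and is one of the 3-month libraries that stood with the 6-month libraries. The part of depth, label and library in both values was not tested.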

How the results depend on the processing

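Between 3 and 6 months in TG mice, miR-26b-5p was called with DESeq2 (-0.64), 2 RUVr factors (-0.57), 1 RUVs factor (-0.39), RLE (-0.64) and upper-quartile normalization (-0.56), spike-in totals (-1.32), a joint fit (-0.59), the replicate block (-0.60) and without the library that stood apart (-0.67), in 12 of 38 alternatives, from -0.67 to -0.50 with 1 mouse left out. In the same comparison, miR-26a-5p was called with RUVs (0.26) and turned sign with library totals (-0.12) and spike-in totals (-0.58), and miR-26b-3p was called with RUVr (-0.94) and spike-in totals (-1.64). The increase of the ratio of miR-26a-5p to miR-26b-5p kept its direction and passed the permutation test in 25 of 25 alternatives. Of these, 20 left out 1 mouse each, and none held the library total as a term. The fit with that term gave 0.48 and has no p. Leaving out the library that stood apart, picked for likeness to the 6-month libraries, is the same fit as leaving out 3-month-old TG mouse 8. Leaving out libraries under 5000000 reads is the same as leaving out 6-month-old TG mouse 9. Both fits therefore recur in the tallies of 38 and 25. The causes of these changes were not tested.

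The replicate number as a block called miR-26b-5p (-0.82) and miR-26b-3p (-1.61) in wild-type control mice between ages and 250 miRNAs there, and turned miR-26b-5p at 6 months (0.044) and miR-26b-3p at 3 months (-0.56) and in the interaction (0.20). Deviations of same-numbered mice had mean correlations of 0.254, 0.0235, 0.00880 and 0.310 in TG ages, wild-type ages, 3 months and 6 months. They were over 0.1 in 7 of 9, 2 of 5, 2 of 5 and 9 of 11 pairs, thus in most pairs of TG ages and of 6 months. Only 2, 1, 1 and 2 mice correlated best with their own number, and the numbers were not taken to pair the mice. Whether the numbers follow a shared library structure was not tested.

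Called miRNAs in TG mice between ages numbered 99 in the report, 316 with RUVr, 251 with RUVs and 266 with spike-in totals (3 higher and 263 lower, against 47 and 52), and 32 higher and 76 lower with library totals. In wild-type control mice the count of 1 became 25 with DESeq2, 219 with RUVr, 41 with RUVs, 2 with library totals or spike-in totals, 46 without the libraries that stood apart and 0 with upper-quartile normalization, the library total as covariate or limma in 3 settings. RUVr also called 82 at 3 months, 6 at 6 months and 5 in the interaction. With 1 mouse left out, the counts were 72 to 131 in TG ages and 0 to 4 in wild-type ages (0 without mouse 2, 3 or 4 and 4 without mouse 1 or 5 at 3 months, 0 without mouse 7 or 8 at 6 months).

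None of the other values whose sign changed was called. For miR-26a-5p between ages in wild-type control mice they were 0.11 with RUVs, 0.13 with the library total as covariate, 0.061 without libraries under 5000000 reads, 0.020 without those that stood apart, and -0.069 to 0.015 with 1 mouse left out. For miR-26a-5p between genotypes they were 0.27 at 3 months and -0.36 in the interaction with spike-in totals, and at 6 months -0.085 with spike-in totals, -0.083 with library totals, -0.022 with limma in 3 settings and -4.3e-05 without libraries under 5000000 reads. For miR-26b-5p they were 0.051 with RUVs and 0.15 with the library total as covariate between wild-type ages, 0.049 with RUVs at 6 months, and -0.10 to 0.028 at 6 months with 1 mouse left out. For miR-26b-3p between wild-type ages they were 0.034 without mice 1 and 2 or with them counted as TG, 0.017 with RUVs, 0.25 with the covariate, and -0.39 to 0.086 with 1 mouse left out. For miR-26b-3p at 3 months they were -0.28 without the libraries that stood apart, -0.017 with RUVs, -0.16 with RUVr, -0.33 with the covariate, -0.20 with limma on log2(RPM + 0.1), -0.039 with limma on log2(RPM + 1) with or without a filter, -0.0049 with upper-quartile normalization, and -0.16 to 0.34 with 1 mouse left out.

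With 5 added to both counts, the ratio of miR-26b-5p to miR-26b-3p was -0.16 between TG ages and -0.29 between wild-type ages. The ratio of miR-26a-1-3p to miR-26a-2-3p between wild-type ages was 0.46 with 5 added, 0.18 without the libraries that stood apart, and -0.57 to 0.084 with 1 mouse left out, and at 3 months it was -0.21 to 0.45. The 3p arms rest on few reads, 818 in all for miR-26b-3p and 274 for miR-26a-1-3p.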
